A study of Mus musculus with 9 samples.

Results

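The airway hyperresponsiveness (AHR) quantitative trait locus (QTL) on mouse Chromosome 12 was described gene by gene in lung RNA of 3 strains. Members were the probesets with 1 gene symbol in the platform's annotation whose protein-coding gene starts on Chromosome 12 from 54.6 to below 82.6 Mb in the RefSeq gene table of build GRCm38.p6, an interval 28 Mb wide. There were 156 such probesets, of 147 genes, among 41345 probesets on the array, and the symbol of each was that of the reference table. The interval holds 175 protein-coding genes in that table. The other 28 had no member probeset, and 18 probesets whose annotation joins a gene of the interval to others were left out, those of *Fam177a*, *Srp54a* and *Srp54b* among them. The build of the mapped limits is not given in the sources used here, so a gene near either limit could lie on its other side in another build.

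Whole lung was measured with 1 array per mouse and 3 mice per strain, from the strains C57BL/6J, BcA86 and CSS12. The paper's array methods name no treatment of these mice. C57BL/6J is the hyporesponsive strain. CSS12 is C57BL/6J with the whole of Chromosome 12 from the hyperresponsive A/J strain, and BcA86 is a recombinant congenic strain of mostly C57BL/6J genome with A/J segments on several chromosomes, 1 of which runs from the proximal part of Chromosome 12 to its end. All members therefore lie on A/J sequence in both BcA86 and CSS12, and on C57BL/6J sequence in the controls, while A/J mice themselves are not among the samples. The methods give 1 range of age in weeks for all animals, and sex is not given in the sources used here. Values are log2 expression values after robust multiarray average (RMA) normalization, so a log2 fold change of 1 is a doubling. The array carries 1 set of probes for all strains, so a difference in RNA level and a difference in how A/J and C57BL/6J RNA binds to them cannot be told apart on these arrays.

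A QTL is a stretch of chromosome whose inherited form goes with the size of a trait, and it usually holds many genes besides any that act on the trait. Airways narrow when the smooth muscle around them contracts, and in AHR they narrow too much in response to agents such as methacholine. The genes of this interval have varied roles in the lung. *Nkx2-1* and *Foxa1* encode transcription factors of lung epithelium, *Nfkbia* encodes the inhibitor that holds NF-kappaB in the cytoplasm, *Hif1a* encodes the oxygen-sensitive subunit of a hypoxia factor, and *Actn1* and *Cfl2* encode actin-binding proteins.

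Few members differed between the strains past the threshold, an adjusted p under 0.05 from limma with adjustment over all 41345 probesets. In BcA86 against C57BL/6J, 2 of 156 members passed, both lower, against 0.375% of all probesets, and 21 had an unadjusted p under 0.05, 12 higher and 9 lower (13.5%, against 10.4% of all probesets). In CSS12 against C57BL/6J, 2 members passed, both lower, against 0.22% of all probesets, and 25 had an unadjusted p under 0.05, 16 higher and 9 lower (16.0%, against 10.7%). These were *Eapp* and *Snapc1* in each comparison, and both comparisons use the same 3 C57BL/6J mice. In CSS12 against BcA86, 0 members passed by limma, against 0.716% of all probesets, and 7 had an unadjusted p under 0.05 (4.49%, against 11.9%). The Cyber-T test, which the methods name, passed 4 members there at an adjusted p under 0.05 (2.56%, against 5.26% of all probesets).

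With the mean of BcA86 and CSS12 set against C57BL/6J, referred to as both strains together, 2 members passed (0.302% of all probesets did) and 22 had an unadjusted p under 0.05, 13 higher and 9 lower (14.1%, against 9.7%). Among protein-coding genes of all chromosomes, that share was 10.7%. In 12 members all 6 mice of BcA86 and CSS12 lay above all 3 C57BL/6J mice, 7.69% against 2.35% of all probesets. In 9 members they lay below all 3, 5.77% against 2.54%. The direction was mixed, with a median log2 fold change of 0.0014 over the members in BcA86 and 0.0096 in CSS12. The median size without sign was 0.073 and 0.092, beside 0.078 and 0.080 over protein-coding genes of all chromosomes.

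**Figure D1:**
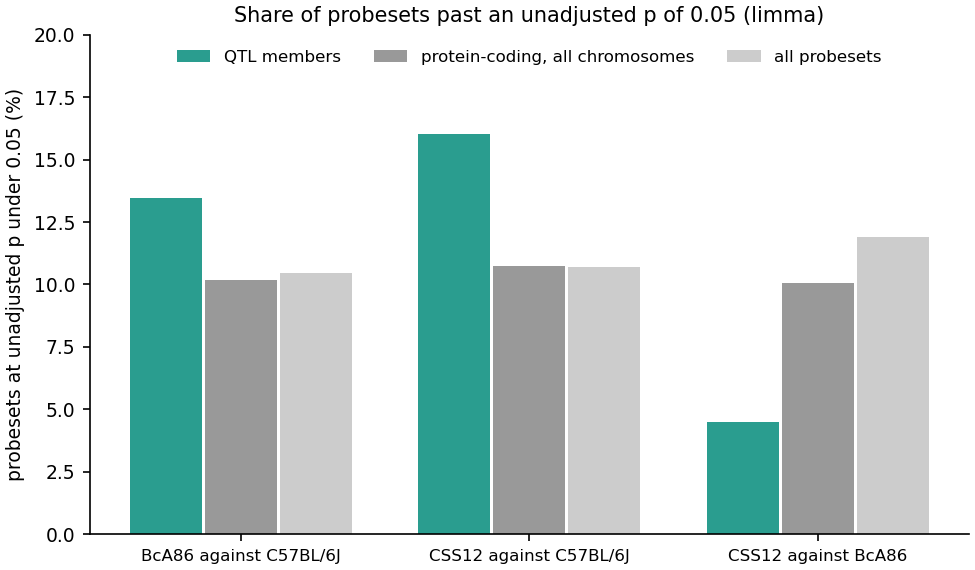
Share of probesets with an unadjusted p under 0.05 from limma (vertical axis, in percent, starting at 0) in 3 comparisons of 3 against 3 mice, for the 156 QTL members, for the 20158 probesets of protein-coding genes on all chromosomes and for all 41345 probesets. The members' bars stand at 13.5% and 16.0% against C57BL/6J, above the other bars, and at 4.49% between CSS12 and BcA86, below them.

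Beyond the genes that passed, the members that set both strains apart from C57BL/6J are given by role, each with the value in every mouse. *Frmd6* encodes a FERM domain protein at the cell cortex that acts upstream of the Hippo pathway. Its 3 C57BL/6J mice had 9.10, 9.08 and 9.21, the BcA86 mice 9.32, 9.34 and 9.34, and the CSS12 mice 9.52, 9.38 and 9.54. The 3 strains did not overlap, with BcA86 between the others. Against C57BL/6J, the log2 fold change was 0.20 for BcA86 (SE 0.066, adjusted p = 0.343) and 0.35 for CSS12 (SE 0.066, adjusted p = 0.116), a fold of 1.28 in CSS12. With trended and robust variances, and with Cyber-T, *Frmd6* passed in CSS12, so its call there turned on the model of the variance. The gene lies at chr12:70825456-70902234.

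*Clec14a*, an endothelial surface lectin that takes part in the growth of vessels, had 10.76, 10.56 and 10.77 in C57BL/6J, 11.00, 11.04 and 11.10 in BcA86, and 10.97, 10.85 and 10.96 in CSS12. All 6 mice lay above the 3 controls, and the log2 fold change was 0.35 for BcA86 (SE 0.076, adjusted p = 0.153) and 0.23 for CSS12 (SE 0.076, adjusted p = 0.356), and Cyber-T passed it in BcA86. *Rhoj* had 11.21, 11.34 and 11.31 in C57BL/6J against 11.40 to 11.45 in BcA86 and 11.37 to 11.42 in CSS12, a log2 fold change of 0.12 in both strains together (SE 0.049, adjusted p = 0.488). *Pecam1*, an endothelial marker on another chromosome, also stood higher in all 6 mice, with 11.53, 11.75 and 11.83 in C57BL/6J, 11.85 to 11.93 in BcA86 and 11.84 to 11.90 in CSS12, a log2 fold change of 0.19 in both strains together (SE 0.071, adjusted p = 0.444). Its part in the values of *Clec14a* and *Rhoj* was not tested, and in whole tissue more cells of a type and more RNA per cell cannot be told apart.

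The promoters of *Frmd6* and *Clec14a* are shown as those of the members above with a call under an alternative test, and they differ in base composition. Each is 300 bases long around the start of transcription, 5′ to 3′, from RefSeq on GRCm38.p6, *Frmd6* at chr12:70825264-70825563 on the + strand and *Clec14a* at chr12:58269209-58269508 on the − strand. Capitals mark matches on either strand to a GC box (GGGCGG), the core of a cAMP response element (TGACG), an ETS site (CGGAAG), the letters CCAAT, or a TATA box spelled TATAAA. The *Frmd6* promoter was 74.3% G and C with 8 GC boxes, of which 2 pairs overlap, and 3 ETS sites. The *Clec14a* promoter was 50.3% G and C with 1 TGACG. The sequences are those of the C57BL/6J reference.
Frmd6: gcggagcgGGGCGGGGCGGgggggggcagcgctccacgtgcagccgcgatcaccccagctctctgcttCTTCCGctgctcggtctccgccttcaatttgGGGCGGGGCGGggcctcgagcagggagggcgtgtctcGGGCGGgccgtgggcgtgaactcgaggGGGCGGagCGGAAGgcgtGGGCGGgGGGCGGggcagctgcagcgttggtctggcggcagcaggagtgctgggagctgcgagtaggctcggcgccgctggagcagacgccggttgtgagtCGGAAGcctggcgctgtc
Clec14a: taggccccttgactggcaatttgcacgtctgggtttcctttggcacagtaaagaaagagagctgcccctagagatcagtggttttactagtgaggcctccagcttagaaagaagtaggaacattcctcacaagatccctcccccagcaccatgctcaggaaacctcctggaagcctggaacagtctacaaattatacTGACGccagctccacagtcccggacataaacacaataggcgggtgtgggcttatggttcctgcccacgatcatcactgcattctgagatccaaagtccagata

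Of the 11 genes on the list for actin, spectrin and cell shape, with 12 probesets, 0 passed, and 4 higher and 0 lower had an unadjusted p under 0.05 in both strains together, where 9.7% of all probesets did. In BcA86 the counts were 3 higher and 0 lower, and in CSS12 3 higher and 1 lower, *Dact1* at −0.18 (adjusted p = 0.435). The list's median log2 fold change in both strains together was 0.10, beside a median of 0.0028 over all members. The 4 higher in both strains together were *Frmd6*, *Rhoj*, *Daam1* and *Nin*. *Daam1*, a formin that nucleates actin filaments downstream of Wnt, had 9.13, 9.32 and 9.35 in C57BL/6J, 9.37 in each BcA86 mouse, and 9.46, 9.48 and 9.52 in CSS12. The lowest mouse of the other strains lay just above the highest control, and the log2 fold change in both strains together was 0.16 (SE 0.059, adjusted p = 0.438). *Nin*, the centrosomal protein ninein, had a log2 fold change of 0.21 in BcA86 and 0.12 in CSS12 (adjusted p = 0.392 and 0.615), and its groups overlapped, 8.37 to 8.56 in C57BL/6J against 8.49 to 8.73 in the other 6 mice.

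Among members of membrane and transport function, *Pcnx* encodes pecanex, a large membrane protein whose role in Notch signalling is known from Drosophila. It had 9.55, 9.66 and 9.58 in C57BL/6J, 9.77, 9.80 and 9.77 in BcA86, and 9.92, 9.86 and 9.88 in CSS12. The groups were separate and the spread in each was small, with SDs of 0.06, 0.02 and 0.03. Its log2 fold change was 0.18 for BcA86 (adjusted p = 0.299) and 0.29 for CSS12 (adjusted p = 0.121), with an SE of 0.055 for each. *Pcnx* passed in CSS12 with Cyber-T, and with trended and robust variances both there and in both strains together.

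*Slc38a6*, of the solute carrier family of amino acid transporters, had 7.64, 7.81 and 7.80 in C57BL/6J, 8.08, 7.92 and 8.08 in BcA86, and 8.05, 8.28 and 8.06 in CSS12. All 6 mice lay above the controls, with a log2 fold change of 0.27 in BcA86 and 0.38 in CSS12 (SE 0.090, adjusted p = 0.356 and 0.206). The annotated spans of *Slc38a6* and *Trmt5*, a tRNA methyltransferase, overlap at their ends, chr12:73268515-73286975 for *Trmt5* and chr12:73286739-73361998 for *Slc38a6*. *Trmt5* had 7.07, 7.18 and 7.12 in C57BL/6J, 7.27, 7.24 and 7.39 in BcA86, and 7.20, 7.41 and 7.24 in CSS12, a log2 fold change of 0.17 in both strains together (SE 0.065, adjusted p = 0.461).

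*Fntb*, the beta subunit of protein farnesyltransferase, which attaches lipid anchors to Ras and related proteins, had 7.14, 6.98 and 7.27 in C57BL/6J, 7.43, 7.31 and 7.36 in BcA86, and 7.45, 7.41 and 7.34 in CSS12. In log2 terms, the change was 0.24 for BcA86 and 0.27 for CSS12 (SE 0.083, adjusted p = 0.381 and 0.323). Its neighbour *Max*, 15.9 kb away, encodes the partner of Myc and lay on the other side of the controls. *Max* had 10.71, 10.73 and 10.76 in C57BL/6J, 10.57, 10.61 and 10.59 in BcA86, and 10.62 in each CSS12 mouse, a log2 fold change of −0.12 in both strains together (SE 0.043, adjusted p = 0.416). The CSS12 values were tied at 10.6249, so their lack of spread need not measure agreement between mice.

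On the lower side, *Rtn1* encodes a reticulon that shapes the endoplasmic reticulum. It had 7.49, 7.37 and 7.34 in C57BL/6J, 7.13, 7.04 and 7.16 in BcA86, and 7.19, 7.08 and 7.05 in CSS12. All 6 mice lay below the controls, and the log2 fold change was −0.29 for BcA86 and −0.30 for CSS12 (SE 0.069, adjusted p = 0.184 and 0.196). It was the 1 member of 11 genes on the list for membrane traffic with an unadjusted p under 0.05 in both strains together.

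*Srp54c* encodes a copy of the 54 kDa subunit of the signal recognition particle, and mice carry near-identical copies next to it, so its probeset may also read those. It had 9.36, 9.47 and 9.71 in C57BL/6J, 9.10, 9.23 and 9.29 in BcA86, and 9.02, 9.15 and 9.26 in CSS12. Its log2 fold change was −0.31 for BcA86 and −0.37 for CSS12 (SE 0.106, adjusted p = 0.377 and 0.294), and Cyber-T passed it in CSS12. *2700097O09Rik*, whose gene starts at 55045661, had 6.35 to 6.38 in C57BL/6J, 6.05 to 6.33 in BcA86 and 6.13 to 6.21 in CSS12, a log2 fold change of −0.18 in both strains together (SE 0.066, adjusted p = 0.429).

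Small differences with little spread made up the rest of the lower side. *Pigh*, a subunit of the enzyme that starts glycosylphosphatidylinositol anchors, had 8.01, 7.99 and 8.001 in C57BL/6J against 7.80 to 7.88 in the other 6 mice, a log2 fold change of −0.15 (SE 0.047, adjusted p = 0.322). Several of those 6 mice were tied at 7.88216, so the small spread of *Pigh* need not measure agreement either. *Mgat2*, an N-acetylglucosaminyltransferase of N-glycan branching, had 9.18, 9.22 and 9.26 against 8.96 to 9.14, a log2 fold change of −0.16 (SE 0.051, adjusted p = 0.381). *Arf6*, a small GTPase of the plasma membrane and endosomes, had 10.32, 10.25 and 10.26 in C57BL/6J, 10.22 to 10.25 in BcA86 and 10.10 to 10.13 in CSS12, so BcA86 lay close to the controls (log2 fold change −0.05) and CSS12 further off (−0.16, adjusted p = 0.324). Its other probeset, at a lower level, had −0.04 and −0.01 in the same comparisons.

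*Pole2*, a subunit of DNA polymerase epsilon, lies 15.0 kb from *Mgat2* and on the other side of the controls. It had 6.47, 6.68 and 6.49 in C57BL/6J, 6.96, 6.77 and 6.86 in BcA86, and 6.63, 6.90 and 6.80 in CSS12, and 1 CSS12 mouse overlapped the controls. Against the controls, the log2 fold change was 0.31 for BcA86 and 0.23 for CSS12 (SE 0.094, adjusted p = 0.299 and 0.444). *Susd6*, a membrane protein with a sushi domain, had 10.79, 10.73 and 10.75 against 10.82 to 10.91 in the other 6 mice, a log2 fold change of 0.11 (SE 0.043, adjusted p = 0.475).

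**Figure D2:**
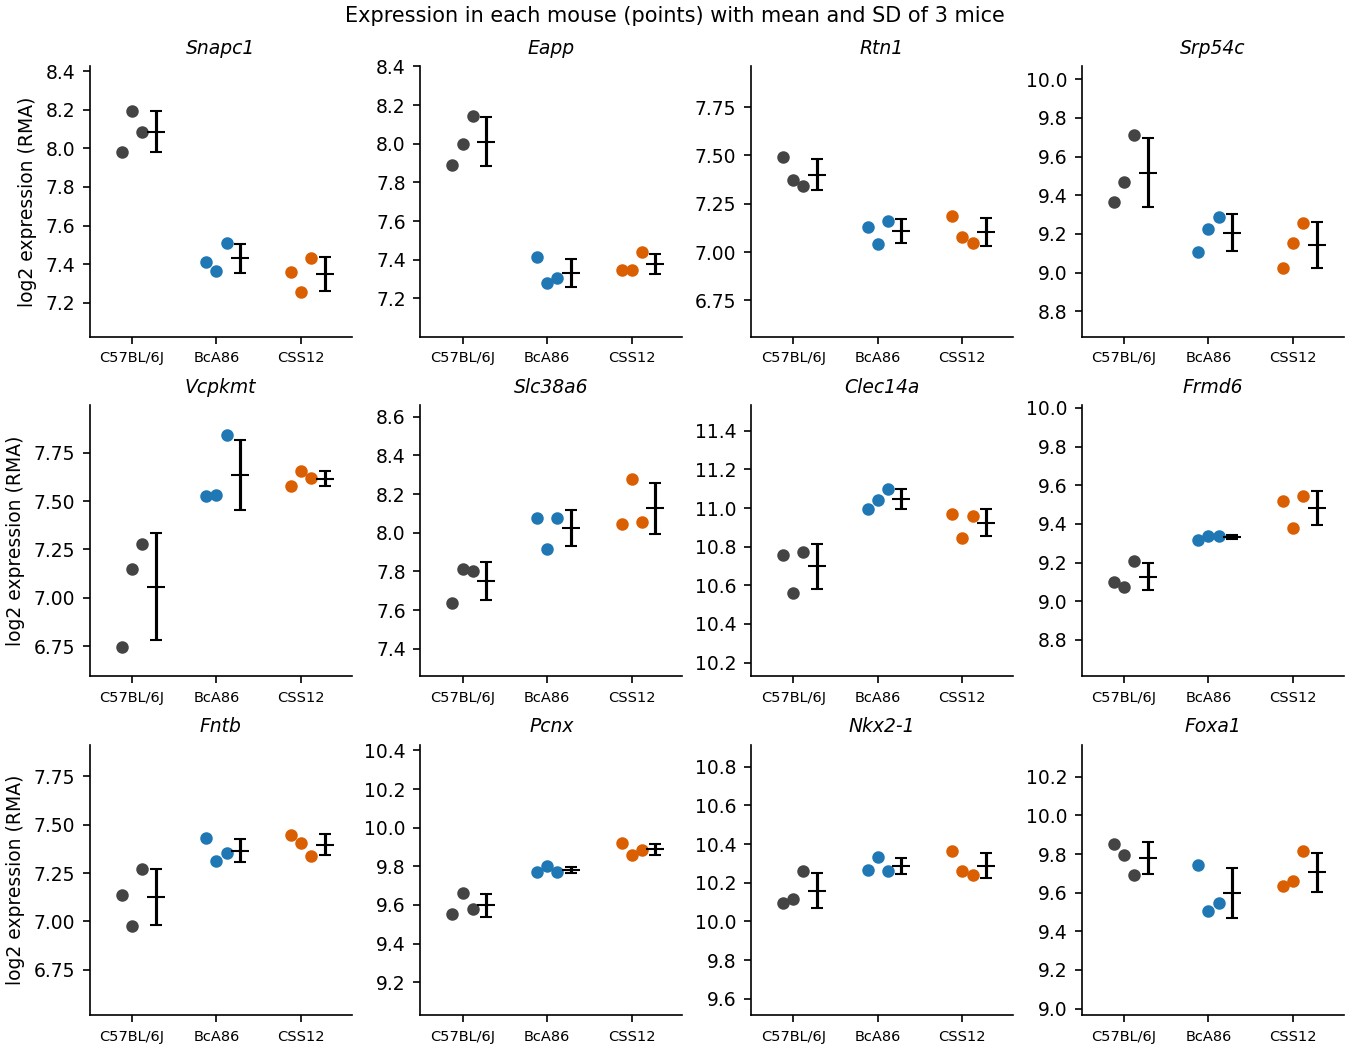
Log2 expression value (vertical axis, each panel 1.4 log2 units high) of 12 QTL members in each mouse of C57BL/6J, BcA86 and CSS12, with the mean and SD of 3 mice beside the points. In 10 panels the 6 mice of BcA86 and CSS12 lie all above or all below the 3 C57BL/6J mice. Those 10 members were named for groups that do not overlap. The points of *Nkx2-1* and *Foxa1* meet or overlap.

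The transcription factors of the interval stayed close to the controls. Of the 10 genes on the list for lung and foregut transcription factors, with 11 probesets, 0 passed and 1, *Max*, had an unadjusted p under 0.05 in both strains together, and the fold changes lay between −0.16 and 0.14. *Nkx2-1* had 10.10, 10.12 and 10.26 in C57BL/6J, 10.27, 10.34 and 10.26 in BcA86, and 10.36, 10.26 and 10.24 in CSS12. Its log2 fold change was 0.13 in each strain, with a 95% interval from −0.03 to 0.29.

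*Foxa1* had 9.85, 9.79 and 9.69 in C57BL/6J, 9.74, 9.51 and 9.54 in BcA86, and 9.63, 9.66 and 9.82 in CSS12. The 3 strains overlapped, and the log2 fold change was −0.18 for BcA86 (95% interval −0.38 to 0.02) and −0.07 for CSS12 (−0.28 to 0.13). These intervals leave out a 1.5-fold change of the array value in either direction for *Foxa1* and for *Nkx2-1*. *Pax9*, a factor of foregut and tooth development, had −0.23 in BcA86 and −0.09 in CSS12 (SE 0.132), and 1 BcA86 mouse at 5.48 lay below the other 8 at 5.91 to 6.13. The main probeset of *Hif1a* had −0.03 and 0.03, and its second, dim probeset had 0.07 and 0.20, none with an unadjusted p under 0.05.

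Of the 12 genes on the list for NF-kappaB and kinase signalling, with 14 probesets, 0 passed. In CSS12, 3 probesets higher and 1 lower had an unadjusted p under 0.05, where 10.7% of all probesets did. The higher ones were *Ralgapa1* (log2 fold change 0.17), *Sipa1l1* (0.17) and the second probeset of *Ppm1a*, and the lower one was *Arf6*. In BcA86 the counts were 0 higher and 0 lower, and in both strains together 0 higher and 1 lower, *Arf6*. *Ppm1a*, a phosphatase that acts on stress kinases, had a log2 fold change of 0.11 in BcA86 and 0.16 in CSS12 on its main probeset and 0.02 and 0.23 on the other, with adjusted p from 0.437 to 0.953 over the 4. *Nfkbia* had 9.83, 10.09 and 9.89 in C57BL/6J, 9.87, 9.75 and 9.71 in BcA86, and 9.999, 10.12 and 9.93 in CSS12. Neither strain had an unadjusted p under 0.05 against C57BL/6J, with −0.16 in BcA86 and 0.08 in CSS12 (SE 0.089).

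In RNA processing and translation, 0 of 10 genes passed. *Srsf5*, a splicing factor of the SR family, had 9.34, 8.88 and 9.05 in C57BL/6J, 9.48, 9.46 and 9.47 in BcA86, and 9.25, 9.21 and 9.21 in CSS12. BcA86 lay above all other mice, with a log2 fold change of 0.38 against C57BL/6J (SE 0.106, adjusted p = 0.256), and CSS12 lay within the range of the controls (0.13, adjusted p = 0.698). *Srsf5* passed in BcA86 with Cyber-T and without C57BL/6J replicate 1. On the other role lists, *Klhdc2*, a substrate receptor of a ubiquitin ligase, had 0.14 in both strains together (adjusted p = 0.555), and *Cdkl1*, a kinase, had −0.25 (adjusted p = 0.619). *Synj2bp*, a protein of the mitochondrial outer membrane, had 0.19 on 1 dim probeset (adjusted p = 0.796), where 1 C57BL/6J mouse at 5.09 lay apart from the other 8 at 5.79 to 6.01, and −0.01 on its brightest.

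*Eapp*, *Snapc1* and *Vcpkmt* were the members with the largest fold changes in both strains together. In the study's quantitative RT-PCR, the differences of *Snapc1* and *Vcpkmt* were found again, while that of *Eapp* was not. *Eapp* encodes a phosphoprotein that binds E2F factors. It had 7.89, 8.0 and 8.14 in C57BL/6J, 7.41, 7.28 and 7.30 in BcA86, and 7.35, 7.35 and 7.44 in CSS12. The log2 value fell by 0.68 in BcA86 (95% interval −0.86 to −0.50, adjusted p = 0.0135), a level 1.60-fold lower, and fell by 0.63 in CSS12 (−0.81 to −0.45, adjusted p = 0.028), 1.55-fold lower. Leaving out 1 mouse at a time, the adjusted p lay between 0.0243 and 0.0793 in BcA86 and between 0.0448 and 0.119 in CSS12. It did not pass in BcA86 without C57BL/6J replicate 2 or BcA86 replicate 2 or 3, and it passed in CSS12 in 1 of these 9 fits, that without C57BL/6J replicate 1.

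*Snapc1* encodes a subunit of the complex that starts transcription of small nuclear RNA genes. It had 7.98, 8.19 and 8.08 in C57BL/6J, 7.41, 7.37 and 7.51 in BcA86, and 7.36, 7.26 and 7.43 in CSS12. The log2 value fell by 0.65 in BcA86 (95% interval −0.84 to −0.47, adjusted p = 0.0167), 1.57-fold lower, and fell by 0.73 in CSS12 (−0.92 to −0.55, adjusted p = 0.0157), 1.66-fold lower. Without 1 mouse at a time the adjusted p lay between 0.0298 and 0.088 in BcA86 and between 0.0368 and 0.0758 in CSS12. It did not pass in BcA86 without C57BL/6J replicate 2 or 3 or BcA86 replicate 1 or 2, nor in CSS12 without C57BL/6J replicate 2 or 3 or any 1 CSS12 mouse. The gap between the highest mouse of BcA86 or CSS12 and the lowest control was wide beside the spread within strains for both *Eapp* and *Snapc1*, whose SDs were 0.05 to 0.13.

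*Vcpkmt*, also known as *Mettl21d*, encodes the methyltransferase that modifies a lysine of the segregase VCP. It had 6.75, 7.15 and 7.28 in C57BL/6J, 7.53, 7.53 and 7.84 in BcA86, and 7.58, 7.65 and 7.62 in CSS12. All 6 mice lay above the controls, whose own SD was 0.28, and 1 of them lay well below the other 2. The log2 fold change was 0.58 for BcA86 (95% interval 0.25 to 0.90, adjusted p = 0.199) and 0.56 for CSS12 (0.23 to 0.89, adjusted p = 0.242), and it did not pass with limma in any of the 4 comparisons. Cyber-T passed it in both strains, with adjusted p of 0.0285 and 0.0243.

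The promoters of these 3 genes are shown to set the members with the largest changes beside each other, with the motifs marked as above. Those of *Eapp* (chr12:54695845-54696144, − strand) and *Vcpkmt* (chr12:69582968-69583267, − strand) hold 1 GC box each, which in *Eapp* overlaps an ETS site, and *Vcpkmt* holds 1 TGACG. That of *Snapc1* (chr12:73964247-73964546, + strand) holds 1 GC box, 2 TGACG, on opposite strands, and 1 CCAAT.
Eapp: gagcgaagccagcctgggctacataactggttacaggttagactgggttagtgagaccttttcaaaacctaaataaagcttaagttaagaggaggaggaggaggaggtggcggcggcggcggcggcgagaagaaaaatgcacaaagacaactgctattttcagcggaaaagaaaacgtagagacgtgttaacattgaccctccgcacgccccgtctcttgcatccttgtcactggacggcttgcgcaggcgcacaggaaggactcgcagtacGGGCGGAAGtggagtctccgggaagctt
Snapc1: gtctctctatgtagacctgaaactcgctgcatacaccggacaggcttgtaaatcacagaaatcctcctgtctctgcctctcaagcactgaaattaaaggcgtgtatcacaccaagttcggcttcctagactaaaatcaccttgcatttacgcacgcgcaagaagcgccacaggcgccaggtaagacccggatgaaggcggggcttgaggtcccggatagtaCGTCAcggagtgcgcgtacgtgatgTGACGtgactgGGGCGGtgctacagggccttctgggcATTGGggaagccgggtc
Vcpkmt: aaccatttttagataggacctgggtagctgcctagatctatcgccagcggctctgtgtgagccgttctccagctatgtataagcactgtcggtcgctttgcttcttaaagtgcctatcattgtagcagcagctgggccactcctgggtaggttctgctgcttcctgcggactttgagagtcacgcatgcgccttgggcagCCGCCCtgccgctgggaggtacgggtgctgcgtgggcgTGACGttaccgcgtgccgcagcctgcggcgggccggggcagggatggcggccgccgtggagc

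Over the 156 promoters that the RefSeq table gives for 130 of the member genes, a GC box was found in 51.9%, TGACG in 33.3%, an ETS site in 25.6%, CCAAT in 36.5% and a TATA box in 7.69%. Over 21263 promoters of protein-coding genes the shares were 46.2%, 23.6%, 21.1%, 38.2% and 12.6%. A match is a run of letters in this window and was not tied to expression.

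**Figure D3:**
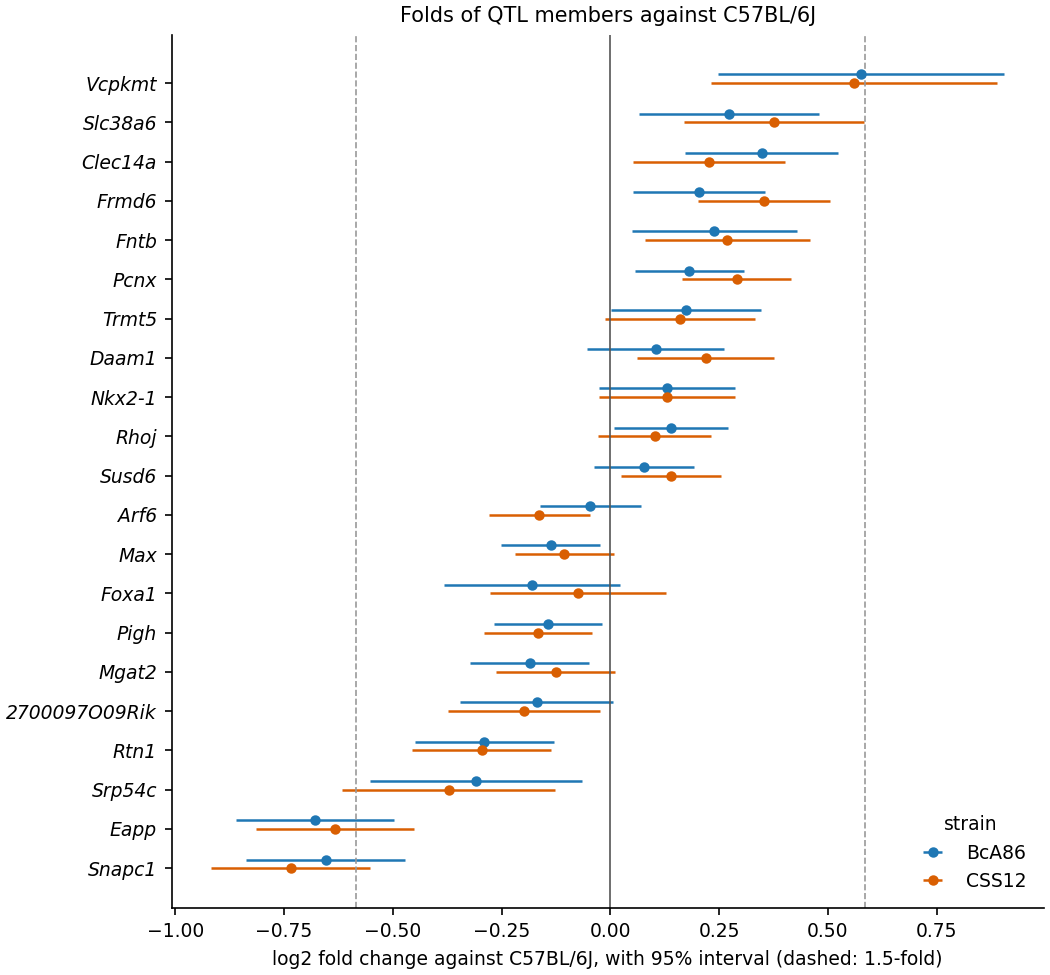
Log2 fold change of BcA86 and CSS12 against C57BL/6J (horizontal axis; points, with 95% intervals from limma as bars; 3 mice per strain) for the 19 named members with an unadjusted p under 0.05 and separate groups, and for *Nkx2-1* and *Foxa1*. Dashed lines mark 1.5-fold; *Snapc1* and *Eapp* lie furthest left, *Vcpkmt* furthest right, and the bars of BcA86 and CSS12 overlap for each gene.

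For most members the arrays set close bounds on any change of the array value. These bound the RNA only so far as the probes read it, which was not tested, and dim members are among them. The 95% interval lay within 1.5-fold of C57BL/6J for 145 of 156 members in BcA86 and for 146 in CSS12, and for 142 in both. The interval reached 1.5-fold in at least 1 strain for 14 members. Of these, 3 were *Eapp*, *Snapc1* and *Vcpkmt*, and the others were *Srp54c*, *Cdkl1*, *Hspa2*, *Ppp1r36*, *Gpx2*, *Arg2*, *Srsf5*, *Slc10a1*, *Smoc1*, *Adam4* and *Synj2bp*. *Arg2*, the mitochondrial arginase, had 7.88, 8.65 and 8.28 in C57BL/6J, 8.30, 8.33 and 8.40 in BcA86, and 8.49, 8.99 and 8.56 in CSS12. The spread of the controls, with an SD of 0.39, leaves its change in CSS12 anywhere from −0.05 to 0.87. *Adam4* differed by 0.58 on the log2 scale in CSS12 (95% interval 0.03 to 1.13, adjusted p = 0.442) at a low level, 4.54 to 5.74, and 12 members had a mean below the 25th percentile of all probesets.

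Along the chromosome, the members that passed lay far apart, *Eapp* at the proximal end of the interval and *Snapc1* 19.4 Mb from it. In 7 windows of 4 Mb from the proximal end, the counts of members with an unadjusted p under 0.05 in both strains together were 4 of 22, 0 of 7, 0 of 10, 5 of 23, 6 of 32, 3 of 23 and 4 of 39. The 2 windows without such a member hold the fewest genes. Among members with an unadjusted p under 0.05 in both strains together, 4 pairs lay within 100 kb of each other. In 2 pairs (*Trmt5* with *Slc38a6*, and *Susd6* with *Srsf5*) both were on the same side of the controls, and in 2 (*Mgat2* with *Pole2*, and *Fntb* with *Max*) they were on opposite sides.

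**Figure D4:**
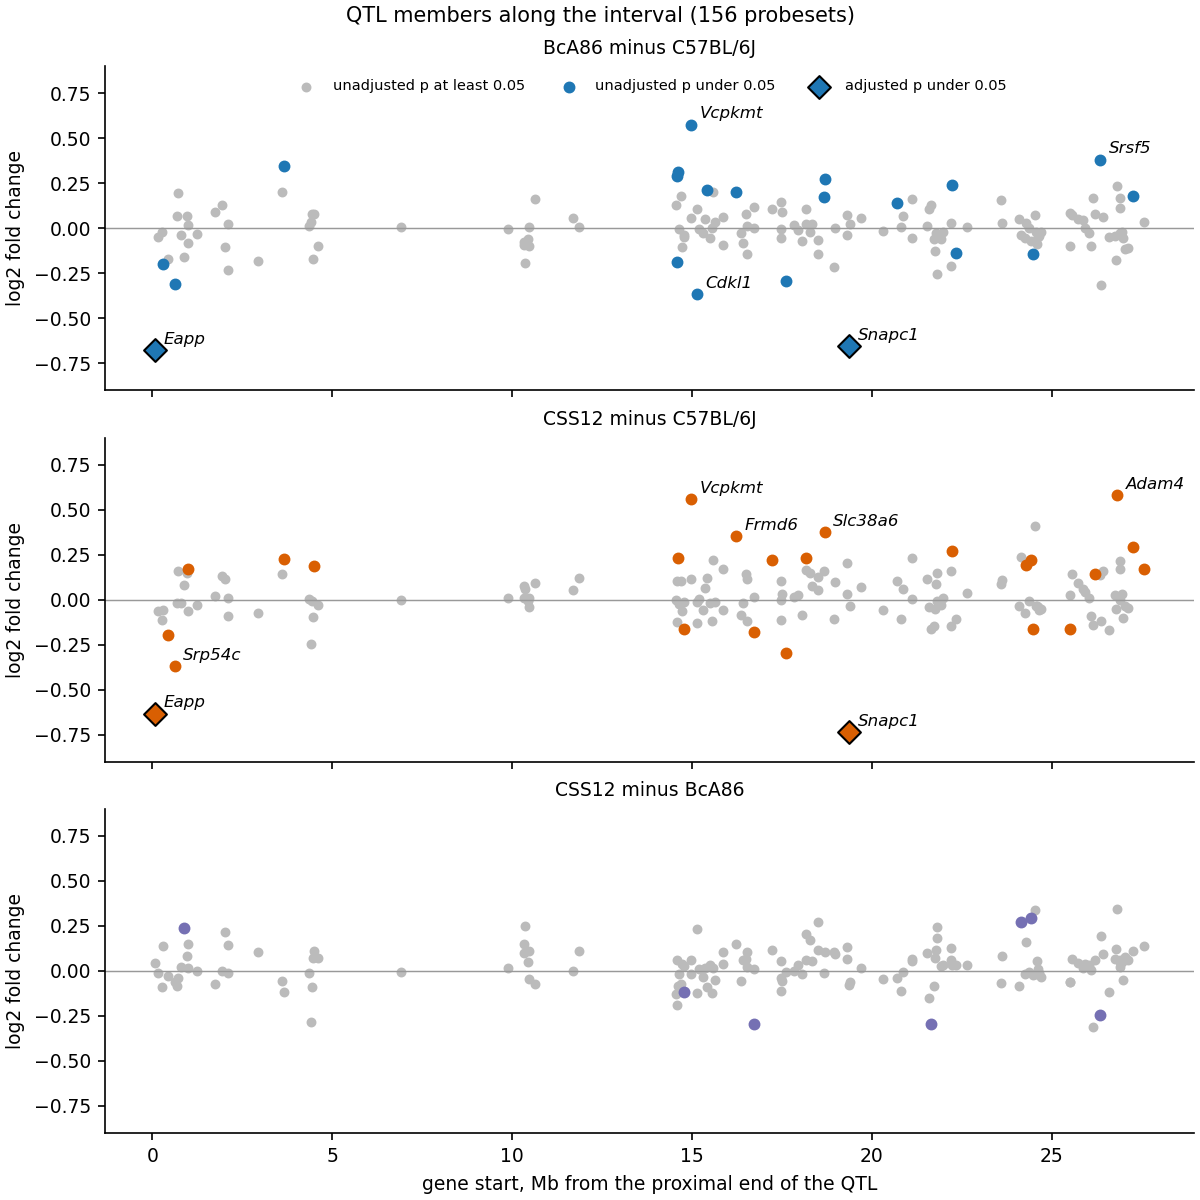
Log2 fold change (vertical axis) of the 156 members against the start of the gene, in Mb from the proximal end of the QTL (horizontal axis), for BcA86 and CSS12 against C57BL/6J and for CSS12 against BcA86, with 3 mice per strain. Grey points have an unadjusted p of at least 0.05, coloured points one under 0.05, and diamonds an adjusted p under 0.05 from limma; diamonds mark *Eapp* and *Snapc1* in the upper panels and there are 0 in the lowest.

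BcA86 and CSS12 carry the same A/J alleles in the interval and were compared with each other directly. The 156 fold changes lay between −0.31 and 0.34 on the log2 scale, and 147 intervals lay within 1.5-fold. The 7 members with an unadjusted p under 0.05 were *Dact1*, *Mthfd1*, *Srsf5* and *Arf6*, lower in CSS12, and *Plekhh1*, *Mpp5* and *Nfkbia*, higher in CSS12, and the smallest adjusted p was 0.119. *Dact1*, which acts in Wnt signalling, had 7.92, 7.87 and 7.90 in BcA86 and 7.45, 7.70 and 7.65 in CSS12, a log2 fold change of −0.30 (SE 0.073, adjusted p = 0.119), with C57BL/6J between them at 7.78 in each mouse. Its second probeset, near 5.47, had 0.01. *Mthfd1*, an enzyme of folate metabolism, had 9.75, 9.89 and 9.92 in BcA86 and 9.69, 9.47 and 9.52 in CSS12, a log2 fold change of −0.29 (SE 0.077, adjusted p = 0.146), and C57BL/6J lay between at 9.71 to 9.74.

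*Nfkbia* had a log2 difference of 0.24, CSS12 minus BcA86 (SE 0.089, adjusted p = 0.332). *Plekhh1* had 0.29 (SE 0.082, adjusted p = 0.173), and *Mpp5*, a scaffold of epithelial cell polarity, had 0.27 (SE 0.109, adjusted p = 0.377). Cyber-T passed *Mthfd1*, *Nfkbia*, *Srsf5* and *Togaram1*. For *Eapp* and *Snapc1* the 95% interval between the strains ran from −0.14 to 0.23 and from −0.26 to 0.10, within 1.5-fold. For *Vcpkmt* it ran from −0.35 to 0.31, and for *Frmd6* from −0.0015 to 0.30.

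Marker levels of 2 blood cell types stood apart in CSS12, and that of 1 erythroid gene in both strains. The 4 neutrophil markers had a mean log2 level of 6.15 to 6.77 in the CSS12 mice, 7.29 to 8.58 in C57BL/6J and 7.96 to 8.16 in BcA86, and 4 of 4 were lower in CSS12 than in C57BL/6J at an unadjusted p under 0.05, with 0 passing. The 3 measured B cell markers had 7.75 to 8.44 in CSS12, 8.47 to 9.21 in C57BL/6J and 8.89 to 9.35 in BcA86, with 2 of 3 lower in CSS12 at an unadjusted p under 0.05. Their part in the members' values in CSS12 was not tested. *Slc4a1*, an anion exchanger of red blood cells and the 1 marker measured here of 4 on the erythroid list, had 7.24, 6.84 and 7.01 in C57BL/6J, 7.38, 7.90 and 7.55 in BcA86, and 7.32, 7.30 and 7.54 in CSS12. Both strains lay above the controls, with a log2 fold change of 0.58 in BcA86, 0.36 in CSS12 and 0.47 in both together (SE 0.133, adjusted p = 0.283), and its part in the members' values was not tested either. On the marker lists for cardiac and skeletal muscle, T cells, macrophages, fat, thymus and liver, 1 thymus marker was lower in CSS12 and in both strains together, and 1 skeletal muscle probeset higher in BcA86, at an unadjusted p under 0.05. The 7 whole lung markers had a mean of 12.1 to 12.2 in every mouse, and 1 of them, *Pecam1*, had an unadjusted p under 0.05 in both strains together. This mean can hide differences in single markers. *Foxj1* ran from 8.38 to 9.69, with a log2 fold change of −0.50 in BcA86 (SE 0.241, adjusted p = 0.520). In CSS12 against BcA86, 1 marker, *Acta2*, had an unadjusted p under 0.05, with −0.29 (SE 0.112, adjusted p = 0.353). Their part in the members' values was not tested.

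Genes with coding non-synonymous SNPs between A/J and C57BL/6J, on the study's list for this QTL, were counted apart. In RefSeq symbols, where *4921506M07Rik* and *Ttc6* of that list are 1 gene, it holds 26 genes, of which 22 were members, with 23 probesets. Both members that passed, *Eapp* and *Snapc1*, were among them, and 9 of the 23 probesets had an unadjusted p under 0.05 in both strains together (39.1%), 5 higher and 4 lower. These were *Clec14a*, *Nin*, *Pole2*, *Slc38a6* and *Trmt5* on the higher side and *2700097O09Rik*, *Eapp*, *Rtn1* and *Snapc1* on the lower side. Among the other 133 members, 0 passed and 13 had an unadjusted p under 0.05 (9.77%, beside 9.7% of all probesets). The median size of the log2 fold change without sign was 0.13 on the list and 0.067 outside it. SNPs of this list lie in coding sequence, and whether the array's probes cover them was not tested. Only array values are contrasted here, so a difference in RNA level and a difference in probe binding cannot be told apart. By the study's quantitative RT-PCR, the difference of *Snapc1* was found again, while that of *Eapp* was not.

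Partners of *Snapc1* and *Vcpkmt* on other chromosomes were read for comparison. Of the 5 subunits of the small nuclear RNA activating complex, with 6 probesets, *Snapc1* was the 1 that passed. *Snapc4* had a log2 fold change of −0.16 in both strains together (SE 0.070, adjusted p = 0.505), and those of the other subunits lay between −0.10 and −0.0030. Of 11 genes for VCP and its cofactors, with 12 probesets, 0 passed and 0 had an unadjusted p under 0.05, with log2 fold changes between −0.09 and 0.22. *Vcp* itself had 0.06 on its brighter probeset (adjusted p = 0.801) and 0.22 on its dimmer one (adjusted p = 0.605).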

How the data were processed

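Affymetrix Gene ST arrays measured whole lung RNA of 9 mice, 3 per strain. RMA normalization in FlexArray, of a version not given in the sources used here, was done by the authors, and their deposited log2 values were used unfiltered and without renormalizing. They run from 1.29 to 13.7, array medians from 6.08 to 6.13, and arrays of a strain correlate at 0.989 to 0.993 across probesets. With 3 mice per strain, precision is limited. Some probesets had the same value in several arrays, such as *Dact1* with 7.78028 in each C57BL/6J mouse. A small spread therefore need not measure agreement between mice, and the source of such ties was not tested. Symbols are those of the platform's annotation, and positions those of RefSeq genes in GRCm38.p6.

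A single linear model of the 9 arrays, with strain as its only term and empirical Bayes variances, was fitted with limma 3.58.1 in R 4.3.3. Benjamini-Hochberg adjustment ran over all 41345 probesets, and passing means an adjusted p below 0.05. Code was tested on simulated data. An exact permutation of mice reaches its smallest p whenever groups are separate, which chose most named members, so it is not given. The alternatives were Cyber-T (101 probesets per window, prior weight 10), trended and robust variances, the compared strains alone and a replicate block. Others were leaving out the dimmest 25% of probesets, median centring, quantile normalization and leaving out each array. The paper names Cyber-T without a window or prior weight. It called probesets on p under 0.05 with a fold cutoff, so the Cyber-T calls here are not its own.

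Named were members that passed, the study's expression candidates, up to 10 higher and 10 lower members with the largest change among those with an unadjusted p under 0.05 and groups that do not overlap, members with a coding nsSNP and such a p, *Foxa1*, and up to 2 of each role list. Other members and partners given values were chosen after their values were seen. Members and lists were chosen with earlier results of these data known.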

Additional observations from a re-analysis of the deposited data

Results flagged for a closer look

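The interval also holds 32 probesets of other kinds of gene, 25 of them for long non-coding RNAs, which are not among the members, and 3 of these passed an adjusted p under 0.05 from limma in both strains together against C57BL/6J, all higher, beside 0.302% of all probesets. They were looked at because they lie outside the protein-coding members and stood above the controls.

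*5830428M24Rik*, a long non-coding RNA gene 101 kb from *Vcpkmt*, had 6.61, 6.71 and 6.45 in C57BL/6J, 7.34, 7.24 and 7.30 in BcA86, and 7.32, 7.18 and 7.24 in CSS12. All 6 mice lay above the controls, and the log2 value rose by 0.68 (SE 0.069, adjusted p = 0.0111).

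*C87198*, 54.2 kb from *Nkx2-1*, had 7.37, 7.17 and 7.23 in C57BL/6J, 7.64, 7.53 and 7.56 in BcA86, and 7.94, 7.88 and 7.84 in CSS12. The 3 strains did not overlap, and the log2 value rose by 0.47 in both strains together (SE 0.061, adjusted p = 0.0257), with 0.32 in BcA86 (adjusted p = 0.153) and 0.63 in CSS12 (adjusted p = 0.0169).

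*Sfta3-ps*, 2.51 kb from *Nkx2-1*, had 10.80, 10.61 and 10.75 in C57BL/6J, 11.08, 11.12 and 11.17 in BcA86, and 11.20, 11.13 and 11.17 in CSS12. All 6 mice lay above the controls, and the log2 value rose by 0.43 (SE 0.057, adjusted p = 0.0307), beside 0.13 for *Nkx2-1* (adjusted p = 0.533). In each strain alone its adjusted p was 0.0596 in BcA86 and 0.0537 in CSS12.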

How the results depend on the processing

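Under the alternatives, 1500 values of named members kept their direction and their side of the threshold, 31 lost the call, 15 gained it and 6 changed sign. In BcA86, the 2 members that passed became 5 with Cyber-T (3.21%, against 2.45% of all probesets). The count was 0 with the compared strains alone, 0 with the replicate block and 0 to 3 without 1 mouse. In CSS12, the 2 became 6 with Cyber-T (3.85%, against 2.61% of all probesets) and 4 with trended and robust variances. There the count was 0 with the strains alone, 0 with the block and 0 to 2 without 1 mouse. Between CSS12 and BcA86 Cyber-T passed 4 (2.56%, against 5.26% of all probesets). In both strains together the block left 1, *Snapc1*, and leaving out 1 mouse left 1 to 2. *Eapp* did not pass there without C57BL/6J replicate 2 (highest adjusted p 0.0541), nor *Snapc1* without C57BL/6J replicate 3 (0.052). The fits of the strains alone and without a mouse have fewer samples, and the cause of the other changes was not tested. Same-numbered arrays of different strains had deviations correlated at −0.107 to 0.147, others at −0.212 to 0.133. Of 9 arrays, 5 correlated best with their own number. With 9 arrays and overlapping ranges, these values cannot decide whether replicate numbers mark a pairing or a batch. Without C57BL/6J replicate 1 the dim second probeset of *Hif1a* had −0.0319 in BcA86, and the second probeset of *Ppm1a* had −0.0636. In the same fit the dim probeset of *Synj2bp* had −0.132 in BcA86, −0.0841 in CSS12 and −0.108 in both. Leaving out each array in turn, the highest values were 0.124 for *Hif1a* and 0.0797 for *Ppm1a* in BcA86, and for *Synj2bp* 0.331 in BcA86, 0.379 in CSS12 and 0.355 in both. Without BcA86 replicate 1, *Ppm1a* had −0.0173 in BcA86. None of these passed under any setting.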
